A study of Mus musculus with 25 samples.

Results

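Bone marrow-derived macrophages (BMDMs) labelled as 24 h of interferon-γ and lipopolysaccharide (IFN-LPS) were compared with unstimulated control BMDMs, across all genes. The 6 libraries, 3 per group, were chosen by their sample labels out of 25 in the series. All came from C57BL/6 mouse bone marrow that M-CSF (25 ng/ml, 4 days), the growth factor of macrophages, had turned into macrophages. The 24 h group received 100 U/ml IFN-γ and 100 ng/ml LPS, and the control received neither. The study calls the treated cells IFN-γ-primed and describes priming as pretreatment, but gives no length for it. The labels give the control a culture time of 4 h, so the stimulation and the longer culture cannot be told apart. Ribosomal RNA was depleted, strand-specific libraries were sequenced, and the authors deposited read counts per gene. The study describes the replicates as independent RNA samples, and nothing used here says whether they came from separate mice, so the p-values measure the spread between these samples. The rest of the series holds earlier IFN-LPS times (1, 4 and 12 h, 3 libraries each), BMDMs given IL-4 or IL-13 for 12 h, and a macrophage cell line.

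IFN-γ signals through its receptor and the JAK kinases, while LPS is sensed by CD14 and TLR4 and drives NF-κB, interferon regulatory factors and a wave of type I interferon. A macrophage exposed to both enters the classically activated, or M1, state. It is known for nitric oxide synthesis, secretion of inflammatory cytokines and chemokines, and antigen presentation. The alternatively activated, or M2, state that IL-4 and IL-13 induce is known for lectin receptors and tissue repair genes.

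Sense-strand counts on genes summed to 2577288 to 2776685 per control library and 3003187 to 3357300 per 24 h library. The ribosomal precursor gene Rn45s took 34.9% to 38.1% and 24.6% to 34.3% of these counts, and was left out. Levels are CPM, counts scaled to a common library size after TMM correction, over the remaining 1678252 to 2532496 counts, with ± giving the SD over n = 3 samples. CPM are not divided by gene length, so levels are compared between groups and not between genes. All 12 macrophage markers checked were detected in both groups, among them Csf1r, the M-CSF receptor, and Mpeg1, a pore-forming protein of macrophages. Mpeg1 lay at 4738, 4663 and 4671 CPM in the control and 4618, 4846 and 4877 CPM at 24 h, and the groups overlapped. By the rule for calls given below, 3 of the 12 were higher at 24 h (Adgre1, Fcgr1 and Cd14), 1 was lower (Mertk) and 8 were not called. The summed level of the 12 macrophage markers was 34174 to 35972 CPM in the control and 38142 to 42895 CPM at 24 h. Of 13 T and NK cell markers 7 had no count in any of the 6 libraries, among them Cd3d, Cd3e and Cd3g, but Cd28 and Cd4 had enough counts for a test and fell. None of the B cell, mast cell or erythroid markers had enough counts for a test, with Ms4a1, Fcer1a and the globin genes at 0 in all 6. Neutrophil granule markers summed to 23.8 to 37.1 CPM and 26.4 to 26.9 CPM, with Elane and Mpo at 0 in all 6 libraries. Fibroblast and stroma markers summed to 219 to 264 CPM in the control and 146 to 171 CPM at 24 h, where 7 were tested and Pdgfrb was called higher. Dendritic cell markers summed to 66.4 to 80.2 CPM and 48.8 to 58.6 CPM, nearly all of it Tcf4, and Flt3, Xcr1 and Siglech were at 0 in all 6 libraries. The part of these cells in the results was not tested. In bulk RNA, fewer cells of a type and less RNA per cell cannot be told apart.

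**Figure D1:**
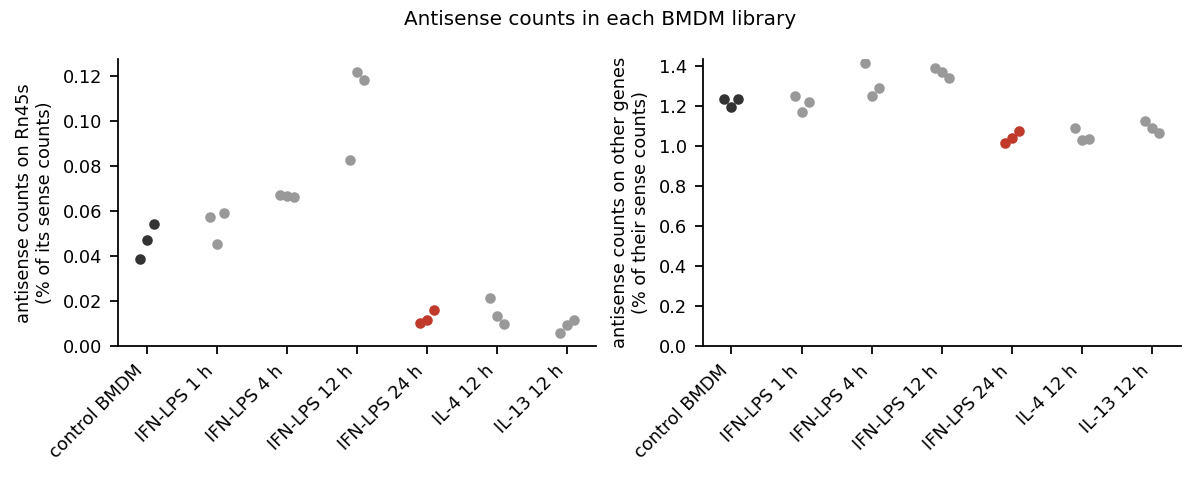
Antisense counts in the 21 BMDM libraries by group, with each point 1 library. They are a percentage of the sense and antisense counts together, of Rn45s (left panel) and of all other genes (right panel). The axis labels name the sense counts alone. The 24 h libraries (red) lie with the IL-4 and IL-13 libraries and below the control libraries (black) and all other IFN-LPS libraries in both panels.

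One property of the libraries followed the groups compared. Antisense counts on Rn45s were 0.0386% to 0.0543% of its sense and antisense counts together in the control and 0.0104% to 0.0162% at 24 h. The 1, 4 and 12 h libraries lay with the control, with 0.0386% to 0.122% over these 12 libraries. The 6 IL-4 and IL-13 libraries lay with the 24 h group, with 0.00603% to 0.0214% over these 9 libraries. Antisense counts on all other genes showed the same division, at 1.20% to 1.23% in the control and 1.02% to 1.08% at 24 h. The labels name no batch, so whatever set these libraries apart and the 24 h treatment cannot be told apart within this comparison. For this reason the level in the IL-4 and IL-13 libraries is given for some genes, from a scaling over the 21 BMDM libraries. IL-4 and IL-13 can themselves change a gene, so such a level is no untreated reference.

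The 24 h libraries differed from the control across a large share of the genes. A gene was called where its Benjamini-Hochberg FDR, by edgeR's quasi-likelihood test over the 9568 genes with enough counts, was 0.01 or less and it moved by 1.5 or more on the log2 scale. By this rule 759 genes (7.93% of those tested) were higher at 24 h and 663 (6.93%) were lower. Both shares are the background for the counts of every gene list below. Genes near 0 in the control could pass the filter on low counts only through a treated group. For those that passed through the 24 h group, a higher call was nearly fixed in advance. The same holds for lower calls of genes near 0 at 24 h that passed through the control. At any size of change, 2286 genes (23.9%) were higher and 2041 (21.3%) lower. Most calls were also made at 12 h against the same control samples, for 675 of the 759 higher and 527 of the 663 lower genes. Only 63 and 90 were called in that direction at 24 h and at none of 1, 4 and 12 h. The median log2 fold change of all genes tested was 0.02. The called genes had a median log2 fold change of 2.88 (median standard error 0.20) among the higher and -2.24 (0.26) among the lower. Of the higher genes 358 moved by 3 or more on the log2 scale and 170 by 5 or more, and of the lower genes 165 and 23. All 759 higher genes and 659 of the 663 lower genes had no overlap between their 3 control and 3 treated samples, against 31.6% of all genes tested lying above the control and 28.6% below it. The calls rest on these same samples, so the lack of overlap follows largely from the calls and is no separate support.

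Most called genes also lay outside the levels of the IL-4 and IL-13 libraries, which share the low antisense counts of the 24 h group. In all 3 samples at 24 h, 745 of the 759 higher genes (98.2%) lay above every one of the 6 IL-4 and IL-13 libraries, against 24.5% of all genes tested. Of the 663 lower genes, 620 (93.5%) lay below all 6, against 22.7%. These libraries were held with their cytokine for 12 h, so they differ from the 24 h group in time as well as in treatment. The calls rest on the same 24 h samples, so high shares follow in part from the calls.

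**Figure D2:**
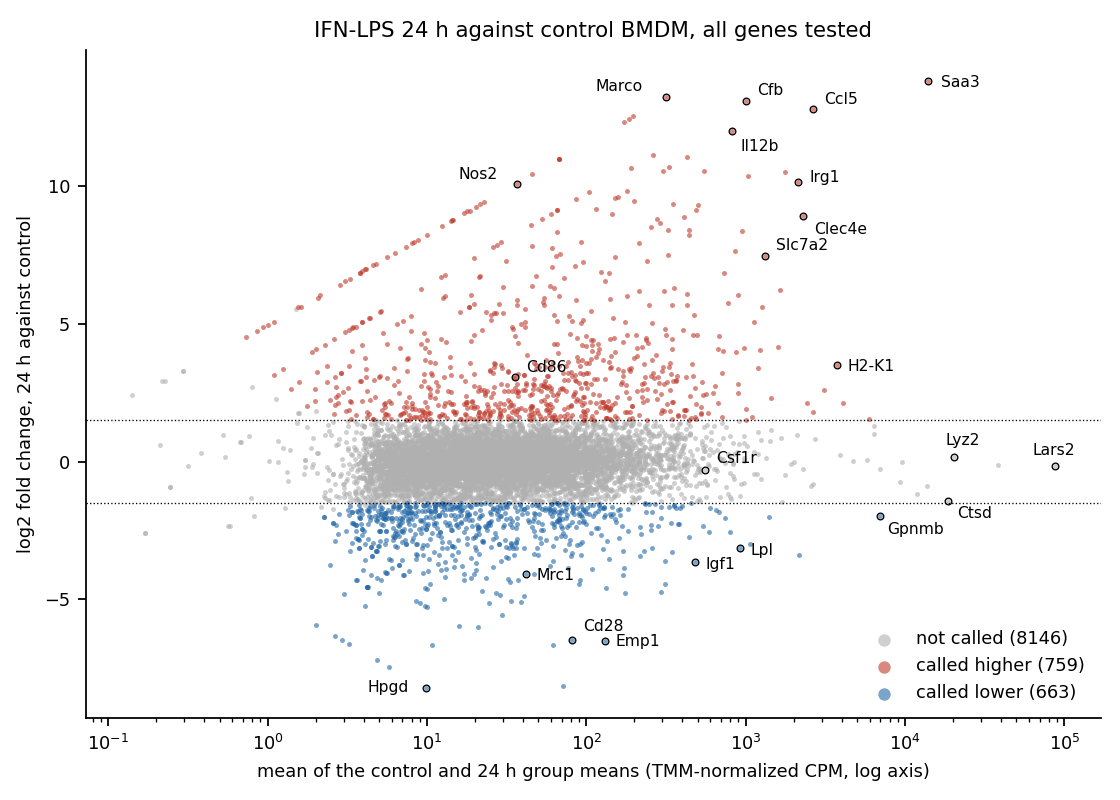
Log2 fold change of 24 h against control (vertical axis) by the mean level of both groups in TMM-normalized CPM (horizontal log axis) for the 9568 genes tested, with dotted lines at 1.5 in either direction. The 759 higher genes (red) reach further from 0 than the 663 lower genes (blue), and the slanted line of points at the upper left holds genes with 0 counts in the control.

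The 10 genes that rose by the largest factors were Saa3, Marco, Cfb, Ccl5, Oasl1, Ifi44, Ifit1bl1, Il12b, Fpr2 and Ms4a4c. Saa3, an acute-phase serum amyloid protein (chr7:46711998-46715700, mm10), was at 1.49, 2.03 and 1.98 CPM in the control and at 25740, 28031 and 30046 CPM at 24 h. The groups lie far apart, with a difference of 13.85 ± 0.265 (SE) on the log2 scale (adjusted p = 6.28e-21, edgeR quasi-likelihood test, Benjamini-Hochberg adjusted). Ccl5, a chemokine for T cells and monocytes, rose from 0.665 ± 0.285 to 5277 ± 136 CPM, a difference of 12.82 ± 0.213 (SE) on the log2 scale. Cfb, complement factor B, had 1 count in the control and 2018 ± 31.6 CPM at 24 h, a ratio of 12126 with a 95% counting interval of 2176 to 478971. Such intervals cover counting error only. Marco, a scavenger receptor for bacteria, had no count in the control and 600, 619 and 691 CPM at 24 h. Against a floor of 3 counts over the control group it was at least 1281-fold higher. By the same floor the antiviral genes Oasl1 and Ifi44 and the Ifit family member Ifit1bl1, all at 0 in the control, were at least 791-fold, 740-fold and 688-fold higher. Il12b, Fpr2 and Ms4a4c, with 1 or 2 counts in the control, reached 1641 ± 197, 521 ± 49.6 and 854 ± 60.1 CPM. The IL-4 and IL-13 libraries had 0 to 1.01 CPM of Cfb, 0 to 0.994 of Marco and 1.48 to 3.76 of Saa3.

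The genes that fell by the largest factors do not form one family. Hpgd, the enzyme that inactivates prostaglandins (chr8:56294585-56321043), was at 16.9, 20.3 and 21.8 CPM in the control and had no count at 24 h. It was at least 45.5-fold lower by the floor of 3 counts. Mamdc2 fell from 142 ± 8.87 to 0.411 ± 0.390 CPM, a ratio of 329 with a 95% counting interval of 112 to 1597. Emp1, a membrane protein, was at 251, 262 and 260 CPM in the control and at 3.19, 1.37 and 3.49 CPM at 24 h, a difference of -6.53 ± 0.181 (SE) on the log2 scale. Rnf150, a RING finger protein, fell from 122 ± 8.66 to 1.13 ± 0.984 CPM. Cd28, known as a costimulatory receptor of T cells, was at 156, 161 and 165 CPM in the control and at 1.83, 2.29 and 1.16 CPM at 24 h. The T cell receptor genes Cd3d, Cd3e and Cd3g had no count in these libraries, and the IL-4 and IL-13 libraries held 111 to 162 CPM of Cd28. Bex1, Lrrc14b and Xylt1, an enzyme of proteoglycan synthesis, fell from 21.3 ± 1.44, 41.5 ± 2.77 and 76.0 ± 6.62 CPM to 0.153 ± 0.264, 0.564 ± 0.493 and 2.24 ± 1.44 CPM. Kctd12b, St6gal1, a sialyltransferase, and Rasgrp3, an activator of Ras, also fell, from 47.8 ± 7.49, 58.2 ± 4.34 and 31.2 ± 7.33 CPM to 1.26 ± 0.748, 1.1 ± 0.759 and 0.411 ± 0.390 CPM.

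**Figure D3:**
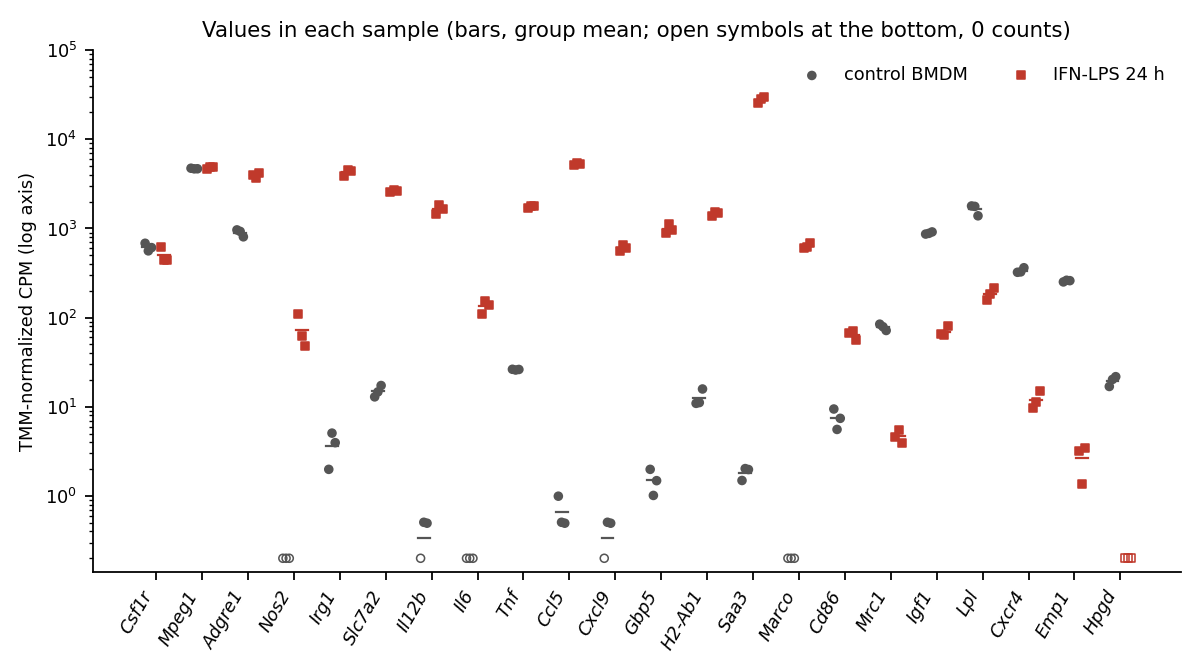
TMM-normalized CPM of 22 genes in each control sample (circles) and each 24 h sample (squares) on a log axis, with short bars at the group means and open symbols at the bottom for 0 counts. Csf1r and Mpeg1 overlap between the groups, and the other genes shown do not.

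The signal transducers of the interferon pathway responded unevenly. Of 32 tested members of the IRF, STAT and SOCS families and their kinases and receptors, 9 rose, 1 fell and 22 were not called, with a median log2 fold change of 0.59 against 0.02 for all genes. Irf7, the regulator of type I interferon genes, rose from 4.97, 5.07 and 6.93 CPM to 1865, 1919 and 1862 CPM, a difference of 8.36 ± 0.149 (SE) on the log2 scale. The feedback inhibitors Socs1 and Socs3 rose from 1.34 ± 1.27 and 0.672 ± 0.775 CPM to 48.9 ± 5.81 and 184 ± 16.7 CPM. Socs6 fell from 118 ± 4.76 to 22.2 ± 5.86 CPM. Jak2 and Irf1, given here after their values were seen, rose by 3.43 and 2.81 on the log2 scale. The receptor chain Ifngr2 was not called, with 196 ± 9.49 CPM in the control and 379 ± 19.3 CPM at 24 h.

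In the Toll-like receptor and NF-κB pathway, 20 of 50 tested genes rose, 1 fell and 29 were not called. Of all genes tested, 7.93% were higher and 6.93% lower. Nfkbia, the inhibitor IκBα that NF-κB itself induces, rose from 38.2 ± 7.83 to 654 ± 11.3 CPM, a difference of 4.10 ± 0.113 (SE) on the log2 scale. The adaptor Traf1 rose from 1.68 ± 1.28 to 424 ± 15.1 CPM. Tlr1, the partner of TLR2 for bacterial lipopeptides, was at 21.9, 19.3 and 11.9 CPM in the control and at 280, 287 and 282 CPM at 24 h. Tlr13, a receptor for bacterial ribosomal RNA, was the gene that fell, from 1000 ± 45 to 298 ± 21.3 CPM. Tlr7 was not called at 261 ± 10.7 and 472 ± 35.5 CPM, and nor was Cd180 at 257 ± 25.9 and 214 ± 15.4 CPM.

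Genes that interferon induces rose almost throughout. All 16 tested interferon-inducible GTPases, which attack the vacuoles of intracellular pathogens, were called higher, with a median log2 fold change of 6.62, or 6.11 with genes at 0 counts set to their bounds. Of the 20 listed, 4 had too few counts for a test. Many of those tested had few or no control counts and passed the filter through treated groups, so their direction was nearly fixed. Gbp5 was at 1.99, 1.01 and 1.48 CPM in the control and at 895, 1129 and 966 CPM at 24 h, a difference of 9.32 ± 0.185 (SE) on the log2 scale (adjusted p = 6.82e-39, edgeR quasi-likelihood test, Benjamini-Hochberg adjusted). Tgtp2 had no count in the control and 119, 163 and 121 CPM at 24 h, so it was at least 267-fold higher. Its near-identical copy Tgtp1 can share its reads, so the split between them is uncertain. Gbp6 had 2 counts in the control and 302 ± 28.1 CPM at 24 h. Of 54 tested antiviral interferon-stimulated genes, 51 rose and 3 were not called, with a median of 4.53. Ifi205 reached 662 ± 68.8 CPM from 2 counts in the control. Ifitm2 and Trim25, which were not called, had log2 fold changes of 0.59 and 1.24.

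Promoter sequences are given for 6 genes that rose, as examples of the letters counted here. All 6 hold a match, unlike most windows of the higher genes. Cxcl9, Ccl22 and Clec4e also rose and held none of the patterns in their 250 upstream bases. RefSeq windows of 300 bases (250 before and 50 after a start site, GRCm38.p6) were matched by symbol for 7396 of the 9568 genes tested. The core of the interferon-stimulated response element, read as GAAA and GAAA with 2 bases of any kind between, stood on either strand in 3.38% of the 9458 windows of tested genes, 12.1% of those of the higher genes and 2.13% of those of the lower genes. They stood in 9 of the 11 windows found for 10 of the 16 GTPases called higher, in 22 of the 46 found for 37 of the 51 antiviral genes called higher, and in 3.44% of all 32851 windows. TTC and GAA with 3 bases between, the gamma-activated site of interferon-γ responses, stood in 6.95% of the windows of tested genes, 10.9% of the higher and 6.25% of the lower genes. GGGA and TTCC with 2 bases between, an NF-κB site, stood in 1.65%, 2.79% and 1.37%, and in 4 of the 9 windows found for 9 of the 16 chemokines called higher. It stood in 3 of the 46 windows of the antiviral genes and in 1 of the 17 of the cytokines called higher, that of Il6. GGCGGGAA, an E2F site, stood in 3.94%, 2.66% and 1.98%. A match is a description of the letters, not of a factor's binding, and genes that lack a window were not examined.

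The 250 upstream bases of 6 genes that rose follow, 5′ to 3′ on the strand of the gene, ending at the base before RefSeq's start site, with matches to these 4 patterns in capitals.
Gbp5 (chr3:142496684-142496933, + strand): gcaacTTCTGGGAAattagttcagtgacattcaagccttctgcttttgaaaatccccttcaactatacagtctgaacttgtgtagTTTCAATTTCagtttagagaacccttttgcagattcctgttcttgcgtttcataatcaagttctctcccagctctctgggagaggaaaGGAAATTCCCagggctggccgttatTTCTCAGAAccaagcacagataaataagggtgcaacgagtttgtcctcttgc
Tgtp2 (chr11:49064213-49064462, - strand): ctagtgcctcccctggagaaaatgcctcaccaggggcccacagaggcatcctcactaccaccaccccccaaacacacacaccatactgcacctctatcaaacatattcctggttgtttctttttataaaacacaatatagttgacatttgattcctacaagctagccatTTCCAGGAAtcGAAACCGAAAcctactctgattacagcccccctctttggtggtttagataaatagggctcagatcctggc
Cxcl10 (chr5:92348890-92349139, - strand): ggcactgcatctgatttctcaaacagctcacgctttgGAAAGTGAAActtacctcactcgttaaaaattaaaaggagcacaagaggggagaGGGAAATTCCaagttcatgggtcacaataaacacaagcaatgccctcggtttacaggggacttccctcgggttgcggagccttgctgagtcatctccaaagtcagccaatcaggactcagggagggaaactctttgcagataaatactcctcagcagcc
Socs1 (chr16:10785537-10785786, - strand): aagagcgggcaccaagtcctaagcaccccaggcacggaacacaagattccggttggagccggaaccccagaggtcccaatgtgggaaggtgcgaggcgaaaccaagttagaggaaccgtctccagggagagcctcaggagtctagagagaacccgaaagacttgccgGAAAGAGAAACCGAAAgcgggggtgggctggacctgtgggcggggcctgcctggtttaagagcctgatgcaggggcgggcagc
Il6 (chr5:30012864-30013113, + strand): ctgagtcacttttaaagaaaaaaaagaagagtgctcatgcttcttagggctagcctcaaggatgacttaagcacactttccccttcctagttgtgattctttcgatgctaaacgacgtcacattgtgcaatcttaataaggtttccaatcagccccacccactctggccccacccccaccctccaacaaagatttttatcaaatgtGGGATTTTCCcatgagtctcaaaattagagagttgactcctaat
Nfkbia (chr12:55492648-55492897, - strand): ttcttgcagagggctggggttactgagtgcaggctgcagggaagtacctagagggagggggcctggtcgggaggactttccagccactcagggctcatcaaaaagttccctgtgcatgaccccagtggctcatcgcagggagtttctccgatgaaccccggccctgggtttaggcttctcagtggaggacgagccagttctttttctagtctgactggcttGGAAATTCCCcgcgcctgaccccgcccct
Gbp5 holds 1 response element core, 2 gamma-activated sites and 1 NF-κB site. In Tgtp2 a gamma-activated site starts 81 bases and a response element core 70 bases before the start site. Cxcl10 holds a response element core 213 bases and an NF-κB site 159 bases before it. Socs1 holds 2 response element cores that overlap and so read as 1 capital run. Il6 and Nfkbia hold 1 NF-κB site each, 44 and 29 bases before the start. None of these 6 holds the E2F pattern.

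Secreted cytokines were largely higher. Of 28 tested cytokines, 17 rose, 2 fell and 9 were not called, with a median log2 fold change of 3.08. Il12b, the p40 chain of IL-12 (chr11:44400063-44414033), was at 0, 0.507 and 0.495 CPM in the control and at 1449, 1843 and 1633 CPM at 24 h. Its 2 control counts give a ratio of 4928 with a 95% counting interval of 1364 to 40694. Il6, a driver of the acute-phase response, had no count in the control and 109, 154 and 138 CPM at 24 h, at least 268-fold higher. Tnf rose from 26.1 ± 0.261 to 1756 ± 61.2 CPM, and Il1b from 2.34 ± 1.56 to 3516 ± 552 CPM. In none of these genes did the groups overlap. Il10, the main anti-inflammatory cytokine, was at 9.13, 6.41 and 5.43 CPM at 24 h against 1 count in the control, a ratio of 41.5 (95% counting interval 7.10 to 1672). Tnfsf12 and Il16 fell, from 35.3 ± 1.65 and 17.2 ± 1.38 CPM to 6.66 ± 0.770 and 5.95 ± 1.20 CPM. Il16 sits at the limit of the call, with a log2 fold change of -1.53.

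Chemokines showed the same direction, with 16 of 19 tested genes higher and 3 not called, at a median log2 fold change of 5.46, or 5.00 with genes at 0 counts set to their bounds. Of the 28 listed, 9 were not tested. Most of those called had few control counts and passed the filter through treated groups. Cxcl9 and Cxcl10, which attract T cells through CXCR3, had 2 counts and 1 count in the control and reached 604 ± 49.2 and 173 ± 2.70 CPM at 24 h. Ccl22 reached 89.3 ± 8.51 CPM from 1 count in the control. Ccl6 and Cxcl12 were not called, with log2 fold changes of -1.38 and -0.57. Receptors for chemoattractants and purines divided, with 10 higher, 8 lower and 9 not called of 27. The formyl peptide receptors Fpr1 and Fpr2, which sense bacterial peptides, reached 359 ± 20.5 and 521 ± 49.6 CPM from 2 counts and 1 count. Adora2a, an adenosine receptor, reached 120 ± 6.84 CPM from 1 count. Cxcr4, the receptor of CXCL12, was at 323, 326 and 363 CPM in the control and at 9.58, 11.4 and 15.1 CPM at 24 h, a difference of -4.78 ± 0.149 (SE) on the log2 scale. Gpr183 and Ccr3 fell from 13.5 ± 3.13 and 8.49 ± 1.34 CPM to 0.715 ± 0.687 and 0.411 ± 0.390 CPM.

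In nitric oxide, arginine and tryptophan metabolism, 5 of 12 tested genes rose and none fell. Nos2, the inducible nitric oxide synthase (chr11:78920787-78960254), had no count in the control and 110, 61.8 and 48.1 CPM at 24 h. The first 24 h sample stood above the other two, and the gene was at least 144-fold higher by the floor. With only the 6 libraries of this comparison in the fit it was no longer called, at 10.28 on the log2 scale against 10.10. Slc7a2, an arginine transporter, rose from 12.9, 14.7 and 17.3 CPM to 2590, 2680 and 2659 CPM, a difference of 7.46 ± 0.121 (SE) on the log2 scale (adjusted p = 8.39e-42, edgeR quasi-likelihood test, Benjamini-Hochberg adjusted). Irg1, the enzyme that makes itaconate, rose from 3.67 ± 1.56 to 4273 ± 372 CPM. Arg1, the arginase that competes with NOS2 for arginine and marks alternative activation, had 0 counts in the control and 5 at 24 h and was not tested. Ass1 was listed at 0 in all 6 libraries. Asl and Oat were not called, with log2 fold changes of 0.29 and -0.04.

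Antigen presentation rose along both routes. Of 24 tested genes of MHC class I presentation 19 rose and 5 were not called, with a median log2 fold change of 3.08. H2-Q4 and H2-T24 rose from 9.48 ± 2.55 and 14.3 ± 3.70 CPM to 489 ± 34.5 and 346 ± 17.3 CPM. H2-Q5 had 1 count in the control and 51.7 ± 8.93 CPM at 24 h. These class I genes are close copies of one another, so their share of the reads is uncertain. The chaperones Calr and Pdia3 were not called, at 0.93 and 0.51 on the log2 scale. For MHC class II, 8 of 13 rose, 1 fell and 4 were not called. H2-Ab1 was at 10.9, 11.1 and 15.8 CPM in the control and at 1367, 1532 and 1480 CPM at 24 h, a difference of 6.84 ± 0.134 (SE) on the log2 scale. Cd74, the invariant chain, rose from 43.0 ± 1.28 to 3260 ± 67.2 CPM. Lgmn, a lysosomal protease that can process antigen, fell from 916 ± 55.6 to 286 ± 5.53 CPM, and Ctss, the protease that trims the invariant chain, was not called at -0.25.

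Of 25 tested costimulatory and checkpoint molecules 13 rose, 5 fell and 7 were not called. Cd40, the receptor through which T cells activate macrophages, rose from 1.67 ± 1.05 to 301 ± 25.0 CPM, and Cd86, the ligand of CD28, from 9.44, 5.57 and 7.42 CPM to 66.6, 70.1 and 56.2 CPM. Pilra, an inhibitory receptor, rose from 5.66 ± 0.247 to 424 ± 28.5 CPM. Havcr2, which encodes TIM-3, and Cd276 fell to 1.15 ± 0.227 and 1.63 ± 0.773 CPM from 19.2 ± 2.09 and 12.3 ± 5.97 CPM. The gene listed as 4632428N05Rik, known as the checkpoint ligand VISTA, fell from 631 ± 27.3 to 130 ± 5.26 CPM.

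**Figure D4:**
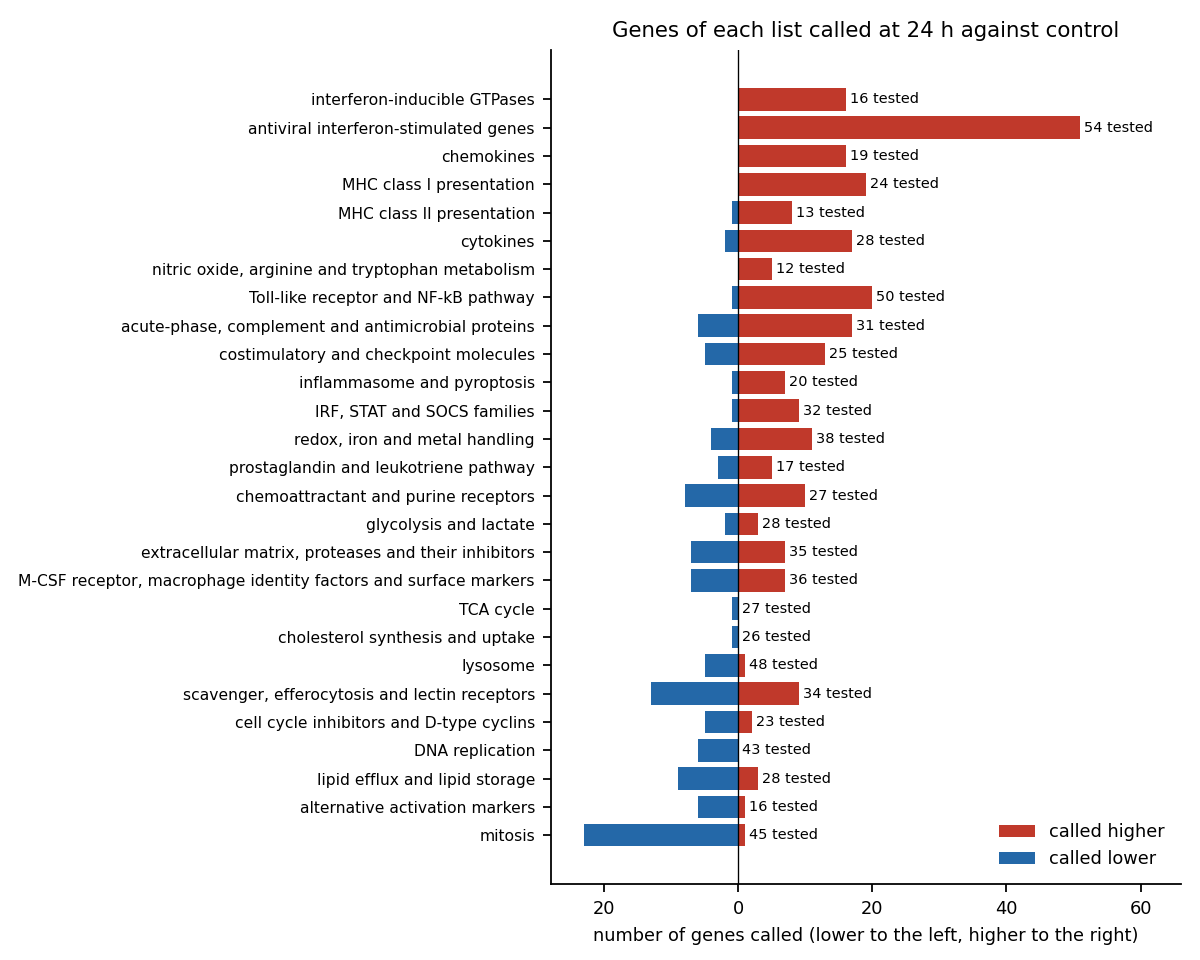
Number of genes called higher (red, to the right) and lower (blue, to the left) at 24 h in each of 27 gene lists, with the number tested beside each bar. The interferon-inducible GTPases and the antiviral genes stand at the top with no gene lower, and the mitosis genes at the bottom with 23 lower and 1 higher.

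Acute-phase, complement and antimicrobial genes numbered 31 tested, of which 17 rose, 6 fell and 8 were not called. Beside Saa3, Cfb and Marco, Slpi and Hp are described with the later times below. S100a4 fell from 148 ± 20.7 to 14.9 ± 5.49 CPM. Ngp, a neutrophil granule protein, had 0 counts at 24 h and 3.99 ± 0.984 CPM in the control, at least 9.26-fold lower. Lyz2 was not called, with 19113 ± 810 and 21681 ± 1752 CPM.

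For the inflammasome and pyroptosis, 7 of 20 tested genes rose, 1 fell and 12 were not called. Nlrp3, the sensor of the inflammasome of that name, rose from 11.6 ± 1.76 to 162 ± 15.1 CPM, Mefv, which encodes pyrin, from 4.5 ± 0.509 to 158 ± 18.3 CPM, and Mlkl, the effector of necroptosis, from 1.01 ± 1.34 to 23.6 ± 3.70 CPM. Nlrp1b fell from 41.3 ± 2.12 to 8.41 ± 3.26 CPM. Of 17 tested genes of the prostaglandin and leukotriene pathway 5 rose and 3 fell. Ptges and Ptgs2, the synthase and the cyclooxygenase of prostaglandin E2, rose from 3 ± 1.74 and 21.3 ± 6.89 CPM to 479 ± 17.1 and 602 ± 104 CPM. Hpgd, which degrades the same product, fell as described above. Hpgds and Alox5ap, which serve the prostaglandin D2 and leukotriene branches, fell from 125 ± 14.7 and 195 ± 6.42 CPM to 38.8 ± 3.72 and 60.6 ± 2.13 CPM.

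Redox, iron and metal genes numbered 38 tested, with 11 higher, 4 lower and 23 not called. Sod2, the mitochondrial superoxide dismutase, was at 69.6, 66.9 and 59.9 CPM in the control and at 2026, 2275 and 2290 CPM at 24 h, a difference of 5.07 ± 0.107 (SE) on the log2 scale. Hmox1, the haem oxygenase, rose from 177 ± 16.9 to 652 ± 54.1 CPM. Slc7a11, the cystine transporter, and Prdx5, a peroxiredoxin, rose from 30.1 ± 2.64 and 171 ± 20.3 CPM to 658 ± 78.5 and 3034 ± 214 CPM. The 4 that fell handle iron and zinc. Slc40a1, the iron exporter ferroportin, fell from 204, 214 and 190 CPM to 13.2, 12.4 and 14.4 CPM. Tfrc, the transferrin receptor, and Steap3, a ferrireductase, fell from 165 ± 7.86 and 59.5 ± 6.34 CPM to 34.1 ± 2.55 and 14.2 ± 2.84 CPM, and the fourth was the zinc exporter Slc30a1. The ferritin light chain Ftl1 was not called, with 9696 ± 299 and 9545 ± 217 CPM, and the heavy chain Fth1, at 3706 ± 199 and 9034 ± 637 CPM, reached 1.29 on the log2 scale.

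In glycolysis and lactate handling 3 of 28 tested genes rose, 2 fell and 23 were not called, near the 7.93% and 6.93% of all genes. At any size 16 were higher and 4 lower at an FDR of at most 0.01, against 23.9% and 21.3% of all genes. Slc2a6, a hexose transporter, rose from 10.1 ± 2.25 to 342 ± 31.3 CPM. Pfkfb3, which makes an activator of glycolysis, rose from 49.7 ± 4.61 to 196 ± 23.3 CPM. Pfkl, the liver-type phosphofructokinase, rose by 1.52 on the log2 scale, at the limit of the call. Ldhb and Aldoc fell, from 29.1 ± 3.23 and 9.33 ± 1.66 CPM to 7.46 ± 0.961 and 3.04 ± 0.541 CPM. In the TCA cycle 1 of 27 tested genes was called, Idh1, the cytosolic isocitrate dehydrogenase, which fell from 57.6 ± 4.69 to 11 ± 2.41 CPM. At any size 9 were higher and 3 lower at an FDR of at most 0.01, against 23.9% and 21.3% of all genes. Mdh1 and Acly were not called, at -0.45 and -0.02.

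Of 26 tested genes of cholesterol synthesis and uptake 1 was called, Sc5d, which fell from 10.9, 9.63 and 11.9 CPM to 5.02, 3.20 and 1.16 CPM and lost its call without 24 h replicate 3. At any size of change, 15 of the 26 were lower and 0 were higher at an FDR of at most 0.01 in edgeR, against 21.3% and 23.9% of all genes. Of 28 genes of lipid efflux and storage 9 fell, 3 rose and 16 were not called, at a median log2 fold change of -1.17. Pparg, the lipid-sensing nuclear receptor, fell from 31.3, 37.5 and 28.7 CPM to 1.83, 1.83 and 1.94 CPM. Lpl, lipoprotein lipase, and Fabp4, a fatty acid carrier, fell from 1648 ± 226 and 165 ± 11.9 CPM to 186 ± 27.9 and 21.7 ± 2.07 CPM. The 3 that rose were Dgat2, which makes triglyceride, Ch25h, which makes 25-hydroxycholesterol, and Nr1h3, the oxysterol receptor LXRα. They went from 0.668 ± 0.299, 0.665 ± 0.285 and 69.9 ± 1.75 CPM to 35.9 ± 4.66, 31.7 ± 1.56 and 504 ± 33.8 CPM.

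Of 45 tested mitosis genes 23 fell, 1 rose and 21 were not called, at a median log2 fold change of -1.56. Ccna2, the cyclin of S and G2 phase, was at 22.4, 28.9 and 22.8 CPM in the control and at 0.913, 0.916 and 1.94 CPM at 24 h, a difference of -4.18 ± 0.353 (SE) on the log2 scale. The spindle motor Kif11 fell from 24.3 ± 1.27 to 2.59 ± 2.17 CPM and the condensin subunit Ncapg2 from 98.6 ± 6.61 to 13.5 ± 2.11 CPM. Pttg1, which encodes securin, was the gene that rose, from 18.9, 9.63 and 10.9 CPM to 38.8, 54.9 and 39.2 CPM. With a log2 fold change of 1.5 taken as the null hypothesis, 5 in place of 23 were called lower. Of 43 DNA replication genes 6 fell and none rose, among them Ccne2, E2f2 and Cdc6, at -3.11, -2.54 and -2.24. At any size 20 were lower and 2 higher at an FDR of at most 0.01, against 21.3% and 23.9% of all genes. Pcna was not called at -1.22. In the list of inhibitors and D-type cyclins, Cdkn1a, which encodes the cell cycle inhibitor p21, and Ccnd2 rose from 23.8 ± 0.484 and 4.16 ± 0.529 CPM to 88.6 ± 4.35 and 24.1 ± 4.52 CPM. Cdkn1c, Cdkn2c and Mxi1 fell, at -3.56, -3.23 and -2.92.

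Macrophage identity genes split evenly, with 7 higher, 7 lower and 22 not called of 36 tested. Csf1r was at 682, 561 and 610 CPM in the control and at 622, 440 and 442 CPM at 24 h. The groups overlapped, and the gene was not called. Ly6c2, a surface marker of inflammatory monocytes, reached 229 ± 20.4 CPM from 2 counts in the control, and Fcgr1, the high-affinity IgG receptor, rose from 50.8 ± 1.91 to 473 ± 16.7 CPM. Siglec1, a sialic acid receptor, rose from 88.0, 78.0 and 105 CPM to 655, 335 and 498 CPM. Cebpa, a myeloid transcription factor, and Egr2 fell from 414 ± 35.3 and 19.4 ± 6.13 CPM to 43.6 ± 8.71 and 0.739 ± 0.550 CPM. Zeb2 was not called at 0.11.

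Among scavenger, efferocytosis and lectin receptors 9 of 34 rose, 13 fell and 12 were not called. Clec4e, the receptor Mincle for mycobacterial glycolipid, rose from 9.30 ± 2.41 to 4546 ± 491 CPM. Trem3 had no count in the control and 35.7 ± 6.77 CPM at 24 h, at least 72.3-fold higher. Mrc1, the mannose receptor and a usual marker of alternative activation (chr2:14229392-14332057), was at 84.5, 79.0 and 71.7 CPM in the control and at 4.56, 5.49 and 3.88 CPM at 24 h. It differed by -4.07 ± 0.202 (SE) on the log2 scale (adjusted p = 7.56e-23, edgeR quasi-likelihood test, Benjamini-Hochberg adjusted). The IL-4 and IL-13 libraries held 445 to 621 CPM. Gas6, the ligand that bridges dying cells to TAM receptors, fell from 321 ± 5.61 to 21.6 ± 6.89 CPM, and Cd300lb from 256 ± 25.3 to 10.5 ± 3.20 CPM. Of 16 tested alternative activation markers 6 fell, 1 rose and 9 were not called. Matk, a kinase, fell from 19.5 ± 1.14 to 0.434 ± 0.458 CPM. The other 5, Clec7a, Cd200r1, Mrc1, Egr2 and Tfrc, are counted on other lists as well. The marker that rose was Ccl22, which is also on the chemokine list, and 13 of the 29 markers in the files had too few counts for a test.

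Of 48 lysosomal genes 1 rose, 5 fell and 42 were not called, against 7.93% of all genes higher and 6.93% lower. At any size 25 were lower and 10 higher at an FDR of at most 0.01, against 21.3% and 23.9%. Ctsc, the protease that activates granule proteases, rose from 102 ± 12.3 to 1632 ± 62.5 CPM. Atp6v0d2, a proton pump subunit, fell from 566, 586 and 648 CPM to 25.1, 35.3 and 23.3 CPM, against 1069 to 1404 CPM in the IL-4 and IL-13 libraries. Ctsd and Ctsb were not called, with 27045 ± 689 and 17904 ± 120 CPM in the control and 10148 ± 228 and 9566 ± 454 CPM at 24 h. The summed level of the list was 83008 to 84791 CPM in the control and 43242 to 44981 CPM at 24 h. Ctsd, Ctsb and Gpnmb made up most of this difference, so the sum does not describe the list as a whole. Of 35 tested matrix genes and proteases 7 rose and 7 fell. Mmp13 and Tgfbi rose from 6.16 ± 0.760 and 26.9 ± 3.66 CPM to 120 ± 9.03 and 370 ± 40 CPM. Mmp12, the macrophage elastase, fell from 571 ± 88.0 to 21.4 ± 1.14 CPM, Igf1, a growth factor, from 887 ± 25.1 to 69.9 ± 9.07 CPM, and Plau from 156 ± 26.5 to 19.2 ± 5.70 CPM.

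Of the 10 genes with the highest CPM in each group, 6 were in both. This order is by share of the counts, since CPM are not divided by gene length. Lars2 and Mir6236 took the most in both groups and were not called, with 91932 ± 11558 and 39681 ± 1458 CPM in the control and 82028 ± 7360 and 36506 ± 7490 CPM at 24 h. Only Rn45s had been left out, and whether reads of ribosomal RNA fell on other genes was not tested. Apoe and Psap, among the 10 in the control alone, were not called, at -1.17 and -0.74. Gpnmb, also there in the control alone, fell from 11174 ± 1554 to 2808 ± 426 CPM. Saa3, Fth1, Tmsb4x and Actb were among the 10 at 24 h alone. Tmsb4x, at 3027 ± 129 and 8790 ± 975 CPM, rose by 1.54 on the log2 scale, at the limit of the call. Actb, often used as a reference gene, was at 4284 ± 258 and 8581 ± 783 CPM.

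**Figure D5:**
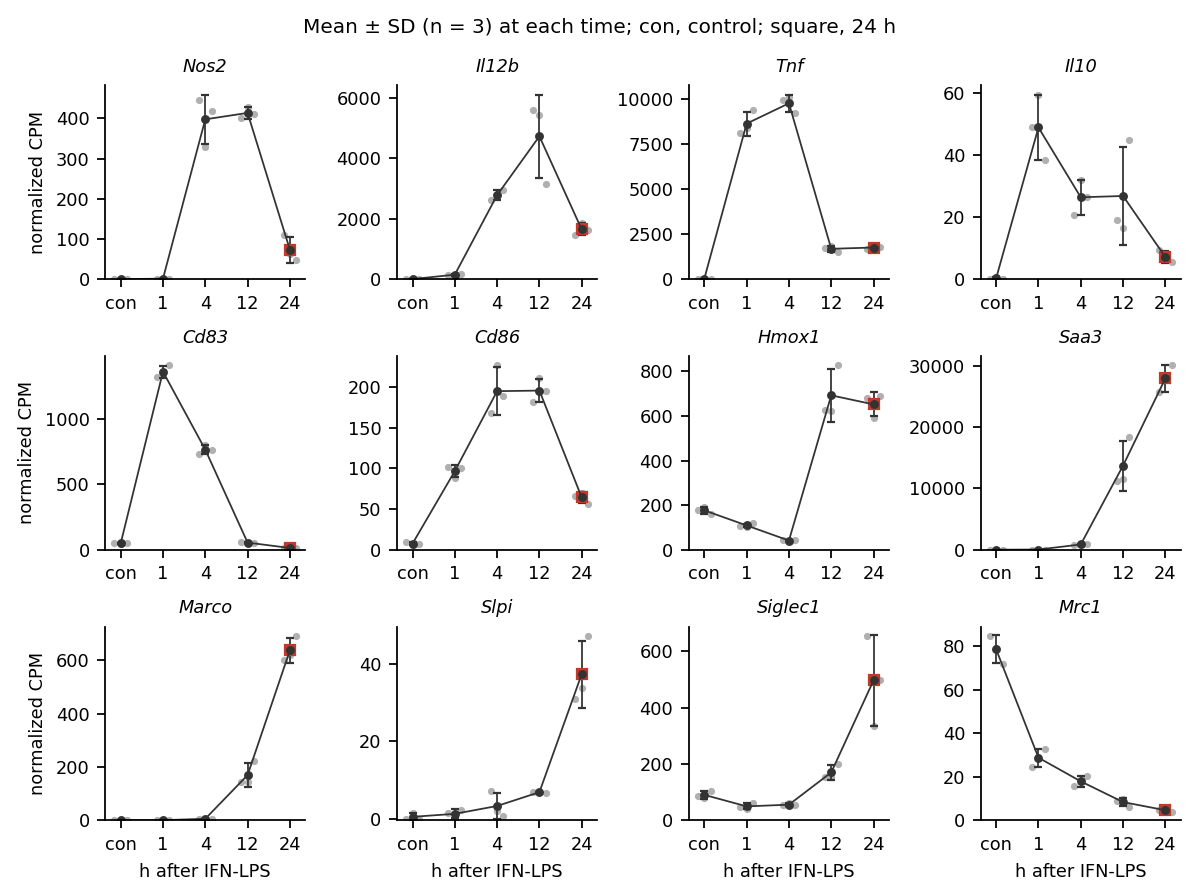
Mean level and SD (n = 3) in TMM-normalized CPM of 12 genes in the control and at each time (in h) of IFN-LPS, with grey points for single samples and a red square at 24 h. Nos2, Il12b, Tnf, Il10 and Cd86 lie below an earlier peak at 24 h, while Saa3, Marco, Slpi and Siglec1 are highest there.

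A direct contrast of 24 h with 12 h, which holds no control sample, called few genes. There were 40 genes (0.418%) higher at 24 h and 83 (0.867%) lower, or 55 and 71 with Rn45s kept in the library sizes. With the cutoff as edgeR's null hypothesis 0 of the 40 and 5 of the 83 were called (29 higher and 51 lower at an unadjusted p under 0.05, and 25 and 86 by DESeq2 without that null), and in that edgeR test Slpi, Trpm2, Abcc3, Ly6i, Marco, Nos2 and Lipg lost their calls. The antisense counts divide these groups as well. Slpi, an inhibitor of neutrophil proteases, rose from 6.88 CPM at 12 h to 31.0, 33.9 and 47.3 CPM at 24 h, a log2 fold change of 2.44 (adjusted p = 6.76e-08, edgeR quasi-likelihood test, Benjamini-Hochberg adjusted). Trpm2, a calcium channel, Abcc3, an efflux transporter, and Ly6i rose from 4.62, 18.3 and 22.5 CPM to 25.5 ± 7.31, 84.0 ± 19.3 and 91.4 ± 12.9 CPM. Marco rose from 169 CPM at 12 h to 637 ± 48.2 CPM. Enzymes and cytokines were among the genes that fell. Nos2 fell from 414 CPM at 12 h to 73.1 ± 32.2 CPM, a log2 fold change of -2.51 (adjusted p = 2.68e-05, edgeR quasi-likelihood test, Benjamini-Hochberg adjusted). Il1rn, the IL-1 receptor antagonist, fell from 4560 to 839 ± 44.7 CPM and Hdc, which makes histamine, from 51.6 to 8.52 ± 3.48 CPM. Lipg, a lipase, was at 72.9 CPM at 12 h and 2.99 ± 0.626 CPM at 24 h. From 12 h, Il12b, Cd86 and Il10 dropped by 1.52, 1.61 and 1.96 on the log2 scale. Cxcl9 and Ccl5 were not called between 12 and 24 h, and Irf7 had a log2 fold change of 0.02.

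Against 4 h, 660 genes (6.90%) were higher at 24 h and 658 (6.88%) lower. The scaling bears on this contrast, since with Rn45s kept in the library sizes 1165 were higher and 399 lower, with upper-quartile factors 836 and 533, and the median log2 fold change of all genes rose from 0.07 to 0.45. Cd300e, a myeloid receptor, was at 0.244 CPM at 4 h and 108, 126 and 128 CPM at 24 h. Hp, haptoglobin, rose from 2.01 to 168 ± 27.4 CPM, and Siglece, an inhibitory sialic acid receptor, from 0.962 to 122 ± 10.9 CPM. Trem3 and Marco rose from 0.244 and 5.85 CPM at 4 h. Nr4a3, Col27a1, Tmem200b and Gm13889, at 51.3, 45.5, 43.4 and 28.8 CPM at 4 h, lay at 0.586 ± 0.706, 0.305 ± 0.529, 0.259 ± 0.448 and 0 CPM at 24 h, close to the control. From 4 h, Tnf, Cxcl10 and Cd40 dropped by 2.48, 3.46 and 3.46 on the log2 scale, and all 3 were called higher than the control. Of the 759 genes higher than the control at 24 h, 150 were also called higher and 132 lower than at 4 h. Against 12 h these numbers were 15 and 41.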

How the data were processed

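RNA was measured in BMDMs by ribosomal RNA depletion and strand-specific sequencing. Per the labels and the study's methods, the authors trimmed reads with Trimmomatic 0.33 and aligned them to UCSC mm10 with STAR 2.5.1, and deposited the counts per gene that STAR gives for unstranded, antisense and sense reads. CASAVA 1.8.2 and DESeq2 are also named in the submitters' processing notes. The sense counts of 24411 gene symbols were used as deposited, without Rn45s. Its removal and the depletion step mean that levels are relative to the other RNAs.

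Control and the 1, 4, 12 and 24 h IFN-LPS groups (15 samples) entered 1 edgeR 4.0.16 robust quasi-likelihood fit (R 4.3.3) with TMM factors and 1 mean per group, after edgeR's filter on low counts had kept 9568 genes. Contrasts with control, 12 h and 4 h were adjusted by Benjamini-Hochberg over all of them. Calls needed a change of 1.5 or more on the log2 scale with an FDR not above 0.01. Standard errors are the log2 fold change over the root of the F statistic. On simulated counts with 200 changed genes of 8846, 97 of 100 genes moved by 2 on the log2 scale and 100 of 100 moved by 3 were called, with 0 false calls. Every simulated gene had a dispersion of 0.02, against a common dispersion of 0.0068 in the data. Changes in genes of low counts, or in a large share of the genes, were not simulated.

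The comparison and the 27 gene lists and 8 marker lists were chosen with earlier results of these data known. Named genes were the 10 largest and 10 smallest changes, the 10 highest levels of each group, the 3 largest and 3 smallest called changes and up to 2 uncalled genes of each list, the 5 largest changes in each direction from 12 h and from 4 h, and 12 usual M1 and M2 markers. Jak2, Irf1, Hmox1, Slc30a1, Cd4, Clec7a, Cd200r1, Adgre1, Cd14, Mertk and the genes of the closing section were named after their values were seen. Gene positions are from GENCODE M21 (mm10), found for 201 of 205 named genes, and promoters from RefSeq. A few genes that the rule selects are not reported here.

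Deviations of same-numbered 24 h samples correlated at 0.054, 0.031 and -0.027 with the control and 0.176, 0.003 and 0.172 with 12 h. With 4 h they correlated at 0.113, 0.089 and -0.043. Not every same-numbered pair was over 0.1, and the main fit held no pairing. Differently numbered samples correlated at -0.070 to 0.049 with the control, -0.191 to 0.048 with 12 h and -0.173 to 0.108 with 4 h. With 12 h the pairs at 0.176 and 0.172 lay above every differently numbered pair, so a pairing there was not excluded. Alternatives were DESeq2 1.42.0, other scaling factors, Rn45s kept, other filters, a null hypothesis set at the cutoff, counts without strand, a fit of only the compared groups, a replicate block and leaving out each library. The cell line libraries were not used.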

Additional observations from a re-analysis of the deposited data

Results flagged for a closer look

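Some genes were called in opposite directions against the control at 4 h and at 24 h, and the contrast of 24 h with 4 h, which holds no control sample, was called for each by edgeR's quasi-likelihood test. Cd83, a marker of activated dendritic cells, was at 48.1 ± 1.77 CPM in the control, 767 ± 34.2 at 4 h and 13.2 ± 2.58 at 24 h, with -5.86 on the log2 scale from 4 to 24 h. Rhob, a small GTPase, went from 244 ± 20.9 to 775 ± 75.9 and 57.0 ± 6.81 CPM, with -3.76. Syne2 (-4.62), Ccng2 (-4.02) and Ppfibp1 (-3.67) had the same shape. Hmox1, the haem oxygenase, had the opposite one, at 177 ± 16.9, 41.1 ± 1.27 and 652 ± 54.1 CPM, with 3.99. Napepld (4.37) followed Hmox1. D330045A20Rik did so as well, with a fitted 8.19 that is no bound, because it had no count at 4 h and 19.3 ± 3.23 CPM at 24 h.

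Antisense counts of single genes were outside the comparisons of expression. At 3 annotated genes they were at least 100 in every 24 h library, at least 10 times the highest control library and above the sense counts. Gm14023 (chr2:129297370-129307826, + strand) had 1, 0 and 3 antisense counts in the control and 903, 1305 and 1493 at 24 h, and overlaps Il1a on the other strand, whose sense level went from 1.49 ± 0.853 to 2065 ± 364 CPM. Mir6381 had 1, 0 and 0 antisense counts in the control and 189, 178 and 183 at 24 h. It lies inside the span of Gbp2 on the other strand, which went from 2.49 ± 1.47 to 881 ± 64.3 CPM. Reads antisense to Gm14023 and Mir6381 run along the sense strands of Il1a and Gbp2. These counts can therefore be reads of Il1a and Gbp2 themselves, which was not tested, and they do not show induced antisense transcription. Mir1198 had 10, 9 and 4 against 159, 165 and 242, with no annotated gene of GENCODE M21 opposite it.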

How the results depend on the processing

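Against 759 genes higher and 663 lower than the control, 374 and 266 were called where every sample needed at least 10 counts. This filter tests fewer genes and drops those at 0 in one group, and 374 and 229 of these calls were among those reported. With the log2 cutoff as edgeR's null hypothesis 326 were lower. From 12 h (40 higher, 83 lower) the 10-count filter gave 4 and 20, the cutoff as null gave 0 and 5 (29 and 51 at an unadjusted p under 0.05 in that edgeR test), and DESeq2 gave 25 higher. From 4 h (660 and 658) Rn45s kept in the library sizes gave 1165 and 399, moving the higher share from 50.1% to 74.5%. The 10-count filter gave 169 and 338 there, and the cutoff as null 183 and 309. The cause of the change under the cutoff as null and under DESeq2 was not tested. From 12 h, Rn45s kept gave 55 and 71. DESeq2 gave 540 and 725 from 4 h. Upper-quartile factors gave 698 higher and 773 lower than the control, so that lower calls outnumbered higher ones. They shifted the median of all genes to -0.11 against the control and 0.23 from 4 h, and gave 836 and 533 from 4 h. Leaving out 1 library gave 754 to 779 higher and 673 to 731 lower than the control, 37 to 57 and 75 to 89 from 12 h, and 611 to 649 and 658 to 678 from 4 h. All other settings gave counts within 1.5 times those reported.

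With the replicate block, 762 genes were higher and 664 lower than the control, 41 and 83 from 12 h, and 661 and 661 from 4 h. Of 204 named genes, 26 had a changed call against the control under at least 1 setting, most often those near the cutoff (Tmsb4x, Pfkl, Il16, Spp1). Nos2 lost its call only in the fit of the compared groups alone. Changes of named genes from 12 h and 4 h were recomputed as alternatives chosen after seeing the data, and 7 of 10 named from 12 h lost a call under some setting. Of 864 list counts 805 stayed within 1.5 times. Depth limits genes of few counts, where 1 count is worth 0.388 to 0.507 CPM in a library.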
